A study of Mus musculus with 8 samples.

Results

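The 10 genes described here belong to the Notch pathway and were followed by their symbols through the table of counts and FPKM of 8 mouse livers, 10 of 55385 gene identifiers in all. They are the ligands *Jag1* and *Jag2*, the receptors *Notch1*, *Notch2* and *Notch3*, the DNA-binding effector *Rbpj*, and the target genes *Hes1*, *Hey1*, *Heyl* and *Nrarp*. FPKM are counts scaled by the length of the exons and by the total of the library. In *Usp39*-HKO livers, the ligand *Jag1* and the target *Heyl* rose, while no receptor passed the test and neither did *Rbpj* or *Hes1*. *Jag2*, *Hey1* and *Nrarp* were too low to be tested in the main comparison.

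The 8 livers came from 4 *Usp39*-HKO and 4 control littermates, all male, 5 weeks old and fasted for 16 hours, each mouse giving 1 library. *Usp39*-HKO mice were bred from *Usp39* fl/fl and Albumin-Cre lines on C57BL/6J, so that deletion follows the albumin promoter, which is active in hepatocytes. The labels call the controls WT. Whether they carried the floxed alleles is not given in the sources used here. Mice are numbered below within each genotype in the order of the labels, A468, A472, A473 and A475 for control livers 1 to 4 and A469, A470, A471 and A474 for *Usp39*-HKO livers 1 to 4.

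Notch receptors sit on the cell surface and are activated by Jagged or Delta-like ligands on a neighbouring cell. Proteases then free the intracellular part of the receptor, which joins Rbpj on DNA and switches on genes such as *Hes1*, *Hey1*, *Heyl* and *Nrarp*. In the liver the pathway is known for the formation of bile ducts, which needs *Jag1* and *Notch2*, and for its use in endothelial and mural cells. The RNA came from whole liver, so fewer cells of a type and less RNA per cell cannot be told apart.

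Counts on genes summed to between 8589636 and 10418450 per control liver and to between 9479922 and 10195028 per *Usp39*-HKO liver, and a floor of 3 counts lay between 0.288 and 0.349 CPM (counts scaled to library size), for counting error only. *Usp39* itself measured 9.58 ± 0.706 FPKM in controls and 8.44 ± 0.286 FPKM after deletion (SD, n = 4 livers each). Its log2 fold change was -0.41 (± 0.11, SE being the standard error, edgeR adjusted p = 0.0212). In these mice loxP sites flank a single exon of *Usp39*, whereas this value counts reads on all its exons in whole liver. It therefore does not measure the extent of deletion, which the paper examined by immunoblotting and qPCR. The defining hepatocyte markers *Alb* and *Hnf4a* were present, at mean FPKM of 7956 and 158 in controls and of 8423 and 158 in *Usp39*-HKO livers. Their log2 fold changes were -0.14 and -0.23 (edgeR adjusted p = 0.626 and 0.292). TMM factors, which edgeR uses to bring the bulk of genes level between livers, were 0.911 to 0.94 among controls and 1.01 to 1.19 among *Usp39*-HKO livers. Fold changes thus compare a gene with the typical gene, and without these factors the median gene lay 0.237 higher in *Usp39*-HKO livers on the log2 scale. Deposited FPKM carry that shift, so levels are also given as TMM-scaled FPKM, computed with the factors.

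For 7 of the 10 genes RefSeq gave the DNA before a RefSeq start of transcription on GRCm38.p6. These windows of 250 bases were searched on both strands for TGGGAA, the core of the site that Rbpj binds. GENCODE places parts of some windows in exons, with 124 exon bases in that of *Jag1* and 132 in the first of *Rbpj*. *Hes1*, *Hey1* and *Heyl* have no entry in that table. The letters were found in 2 of the 8 windows of these genes, both of *Rbpj* itself and overlapping each other, and in 21.6% of all 32851 windows. A match is a description and not a binding site. The part of the *Jag1* window outside annotated exons, at chr2:137116645-137116770 on the minus strand, is printed because *Jag1* was the member with the smallest p, and the *Rbpj* stretches are printed for the match, which is in capitals:
Jag1: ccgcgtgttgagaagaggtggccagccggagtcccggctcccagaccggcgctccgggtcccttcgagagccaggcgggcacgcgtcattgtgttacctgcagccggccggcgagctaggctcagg
Rbpj, 149 bases before the start: aatgaaaaaggcTGGGAAcccgcggcgagc
Rbpj, 65 bases before the start: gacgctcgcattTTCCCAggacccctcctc
The *Rbpj* stretches lie on the plus strand at chr5:53590185-53590214 and chr5:53590269-53590298. The second holds the match on the opposite strand and is within an annotated exon.

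In controls, *Hes1* had the highest level of the 10 genes at 8.96 FPKM, followed by *Notch2* at 6.65, *Notch1* at 3.21, *Rbpj* at 1.9 and *Jag1* at 1.82. *Notch3*, *Heyl*, *Hey1*, *Nrarp* and *Jag2* followed at 0.816, 0.685, 0.309, 0.291 and 0.0638 FPKM. Of the neighbours in this order, *Rbpj* and *Jag1*, *Notch3* and *Heyl*, and *Hey1* and *Nrarp* overlapped in range among the controls. In *Usp39*-HKO livers *Jag1*, at 3.58 FPKM, stood above *Rbpj*, at 2.4, in 4 of 4 livers, against 1 of 4 controls. Only *Rbpj* with *Heyl*, and *Hey1* with *Nrarp*, were neighbours whose ranges stayed apart there.

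**Figure D1:**
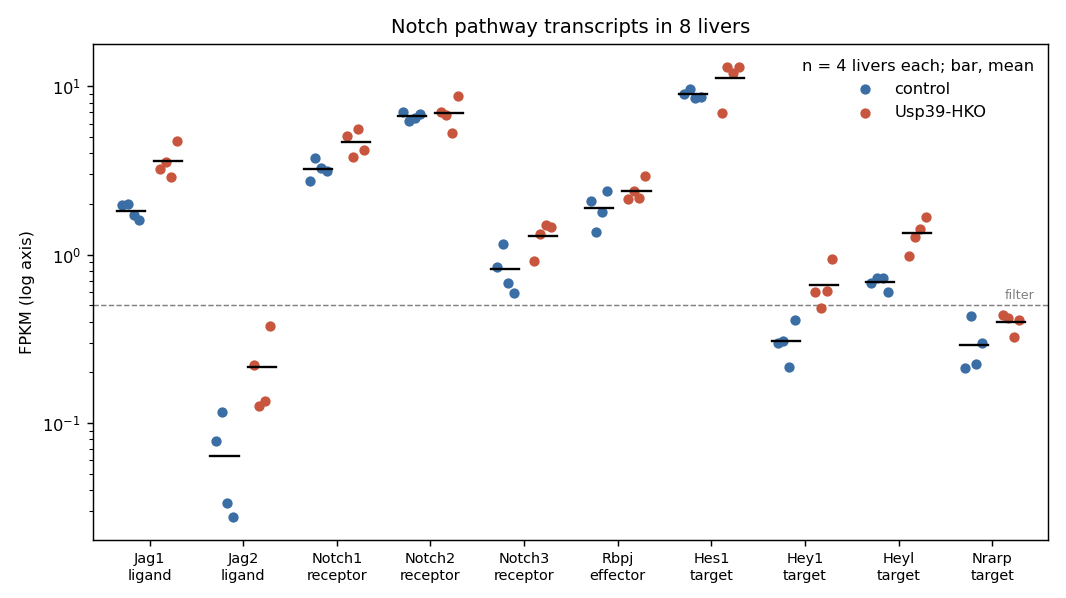
FPKM of the 10 Notch genes (log axis) in 4 control (blue) and 4 *Usp39*-HKO livers (red), each point a liver and each bar a mean, with the filter at 0.5 FPKM dashed. *Jag1*, *Jag2*, *Notch1*, *Hey1* and *Heyl* have every *Usp39*-HKO point above every control point on this unscaled measure, and *Notch2*, *Rbpj*, *Hes1*, *Notch3* and *Nrarp* overlap.

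Genes that reached 0.5 FPKM in 4 or more livers were compared by the quasi-likelihood test of edgeR on the deposited counts, with Benjamini-Hochberg adjustment over all 14340 genes tested. Of the 10 Notch genes 7 were tested, and each of the 7 was at or above 0.5 FPKM in all 8 livers. At an adjusted p under 0.05, 2 of the 7 were higher in *Usp39*-HKO livers, where 10.9% of all genes tested were. None was lower in edgeR, where 11.6% of all genes were. None was lower at an unadjusted p under 0.05 or in DESeq2 or in limma, which used deposited FPKM without TMM factors. The median log2 fold change of the 7 was 0.31, and that of all genes tested was -0.00148. These 2 genes also passed upwards at the study's cutoff, which asks for a change of more than 0.5 in log2 and for 0.05 in the p before adjustment, as did 12.1% of all genes. Downwards 0 members passed it, against 9.62% of all genes. Without TMM factors 4 of the 7 were called higher, *Jag1*, *Heyl*, *Notch1* and *Notch3*, and 24.6% of all genes were.

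*Jag1* (ENSMUSG00000027276, GRCm38 chromosome 2 from 137081456 to 137116644, minus strand) encodes Jagged1, the ligand whose loss in people gives Alagille syndrome with too few bile ducts. Its FPKM were 1.98, 1.99, 1.72 and 1.6 in control livers 1 to 4 and 3.21, 3.53, 2.88 and 4.71 in *Usp39*-HKO livers 1 to 4, from between 86 and 260 counts. Every *Usp39*-HKO liver was above every control, also in TMM-scaled FPKM, and *Usp39*-HKO liver 4 was the highest. The means were 1.82 ± 0.196 and 3.58 ± 0.796 FPKM (SD, n = 4 livers each), with p = 0.029 in a two-sided exact permutation test, the smallest that 4 livers against 4 allow. Relative to the typical gene *Jag1* rose 1.66-fold, a log2 fold change of 0.73 (± 0.15 SE, edgeR adjusted p = 0.00594). The 95% interval of this log2 fold change ran from 0.41 to 1.05. The call held with each liver left out, with adjusted p between 0.00608 and 0.0246.

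*Jag2* (ENSMUSG00000002799, chromosome 12), which encodes the other Jagged ligand, stayed under the filter in all 8 livers. It had 5, 8, 2 and 2 counts in control livers 1 to 4 and 15, 9, 9 and 25 in *Usp39*-HKO livers 1 to 4. The 4 controls summed to 17 counts and the 4 *Usp39*-HKO livers to 58. In deposited FPKM the groups did not overlap, with means of 0.0638 ± 0.0414 and 0.216 ± 0.117 (SD, n = 4 livers each, two-sided exact permutation p = 0.029). In TMM-scaled FPKM control liver 2 lay among the *Usp39*-HKO livers and the exact permutation p was 0.057. Fitted with no filter on low values, *Jag2* had a log2 fold change of 1.44 (± 0.50 SE) with an adjusted p of 0.0512 in edgeR, which does not pass.

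The receptors showed no call in either direction. *Notch1* (ENSMUSG00000026923, chromosome 2) and *Notch2* (ENSMUSG00000027878, chromosome 3) encode the receptors that are widely used in tissues, *Notch2* being the receptor of bile duct formation, and *Notch3* (ENSMUSG00000038146, chromosome 17) is known from vascular smooth muscle and pericytes. *Notch1* measured 2.74, 3.74, 3.25 and 3.12 FPKM in control livers 1 to 4 and 5.09, 3.78, 5.6 and 4.21 in *Usp39*-HKO livers 1 to 4. The groups lay apart in deposited FPKM, by 3.74 against 3.78 at the nearest point, and in TMM-scaled FPKM only *Usp39*-HKO livers 1 and 3 were above all controls. The log2 fold change of *Notch1* was 0.31 (± 0.16 SE, edgeR adjusted p = 0.176), with a 95% interval from -0.03 to 0.65. Without TMM factors *Notch1* passed, at 0.54 with an edgeR adjusted p of 0.0156, and it passed in limma on log2(FPKM + 1) and log2(FPKM + 0.1), with adjusted p of 0.0393 and 0.0443. Both limma fits used deposited FPKM without TMM factors. In the fit on log2(FPKM + 1) the median gene lay 0.172 higher in *Usp39*-HKO livers. Of the exon bases of *Notch1*, 9.76% are shared with other annotated genes.

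*Notch2* measured 7.03, 6.2, 6.47 and 6.89 FPKM in the controls and 7.06, 6.71, 5.26 and 8.8 in *Usp39*-HKO livers, with the *Usp39*-HKO livers on both sides of the controls. Its log2 fold change was -0.18 (± 0.12 SE, edgeR adjusted p = 0.34, 95% interval from -0.45 to 0.10). The sign of *Notch2* depended on scaling, since its mean FPKM as deposited was 0.31 higher in *Usp39*-HKO livers and its TMM-scaled mean 0.841 lower. It depended on single livers too, since the difference in deposited FPKM of *Notch2* was -0.303 without *Usp39*-HKO liver 4 and 0.876 without *Usp39*-HKO liver 3. *Notch3* measured 0.848, 1.15, 0.676 and 0.593 FPKM in the controls and 0.916, 1.33, 1.49 and 1.46 in *Usp39*-HKO livers. Control liver 2 was above *Usp39*-HKO liver 1, and the other 3 *Usp39*-HKO livers were above all controls. The log2 fold change of *Notch3* was 0.43 (± 0.22 SE, edgeR adjusted p = 0.198), and its 95% interval from -0.06 to 0.92 holds values as large as those of *Jag1*. Without TMM factors *Notch3* passed as well, at 0.67 with an adjusted p of 0.0493.

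*Notch2* made up the larger part of the receptor transcripts in every control, between 51 and 61.2% of the summed FPKM of *Notch1* to *Notch4*. In *Usp39*-HKO livers 1 to 4 its share was 51.1, 52.5, 39.7 and 57.2%, and that of *Notch1* was 36.9, 29.5, 42.2 and 27.4%. *Usp39*-HKO liver 3 was the only liver of the 8 in which *Notch1* exceeded *Notch2*. The shares of each of the 4 receptors overlapped between the groups. Summed over the 4 receptors, the deposited FPKM were 11.1 to 12.2 among controls and 12.8 to 15.4 among *Usp39*-HKO livers. In TMM-scaled FPKM these sums overlapped, with 12.1 to 13.2 among controls and 11.8 to 13.6 among *Usp39*-HKO livers.

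**Figure D2:**
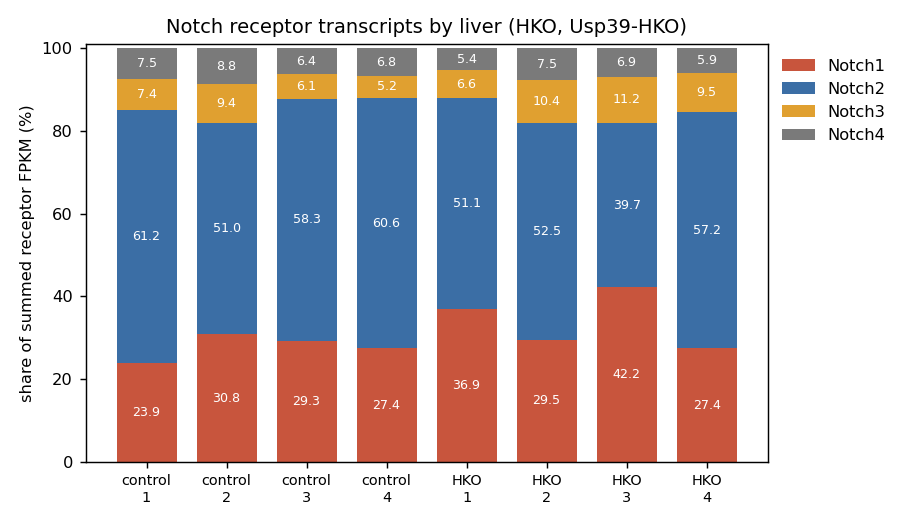
Share of each receptor (stacked bars, % of the summed FPKM of *Notch1* to *Notch4*) in each of the 4 control and 4 *Usp39*-HKO livers. *Notch2* holds 39.7% in *Usp39*-HKO liver 3 and at least 51% in the other 7 livers, and no receptor's share separates the genotypes.

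*Rbpj* (ENSMUSG00000039191, chromosome 5), the factor through which the activated receptors act on DNA, measured 2.07, 1.37, 1.79 and 2.38 FPKM in control livers 1 to 4. The *Usp39*-HKO livers had 2.15, 2.38, 2.16 and 2.92 FPKM and overlapped with the controls. Its log2 fold change was 0.10 (± 0.15 SE, edgeR adjusted p = 0.7, 95% interval from -0.24 to 0.44).

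Of the 4 targets 2 were tested, *Heyl* and *Hes1*, and *Heyl* rose. *Heyl* (ENSMUSG00000032744, chromosome 4 from 123233556 to 123249875, plus strand) encodes a transcriptional repressor of the Hairy and enhancer-of-split type that is known from vascular smooth muscle. Its FPKM were 0.682, 0.73, 0.729 and 0.601 in control livers 1 to 4 and 0.986, 1.27, 1.43 and 1.67 in *Usp39*-HKO livers 1 to 4, from between 32 and 81 counts. All *Usp39*-HKO livers were above all controls on both scales. The means were 0.685 ± 0.0607 and 1.34 ± 0.288 FPKM (SD, n = 4 livers each, two-sided exact permutation p = 0.029). The log2 fold change was 0.72 (± 0.19 SE, edgeR adjusted p = 0.0202, 95% interval from 0.30 to 1.14), or 1.65-fold. The adjusted p of *Heyl* was 0.0656 without control liver 4, 0.0531 without *Usp39*-HKO liver 3 and 0.0602 without *Usp39*-HKO liver 4, so that only *Jag1* was then called of the 7.

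*Hes1* (ENSMUSG00000022528, chromosome 16), the repressor most often read as a sign of Notch activity, measured 9.04, 9.61, 8.52 and 8.67 FPKM in controls. In *Usp39*-HKO livers 1 to 4 it measured 6.97, 13.1, 12 and 13 FPKM. *Usp39*-HKO liver 1 was below every control and the other 3 were above every control, so that the spread between *Usp39*-HKO livers (SD 2.93) was wider than that between controls (SD 0.485). The log2 fold change of *Hes1* was 0.09 (± 0.16 SE, edgeR adjusted p = 0.738, 95% interval from -0.27 to 0.45). It was 0.26 without *Usp39*-HKO liver 1 and 0.00 without *Usp39*-HKO liver 2, with edgeR adjusted p of 0.121 and 0.988.

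*Hey1* (ENSMUSG00000040289, chromosome 3), a repressor related to *Heyl*, reached 0.5 FPKM in 3 livers and was left untested. It had 9, 10, 6 and 14 counts in control livers 1 to 4 and 19, 16, 19 and 29 in *Usp39*-HKO livers 1 to 4. Every *Usp39*-HKO liver was above every control on both FPKM scales, with means of 0.309 ± 0.0809 and 0.657 ± 0.196 FPKM (SD, n = 4 livers each, two-sided exact permutation p = 0.029). With no filter its log2 fold change was 0.79 (± 0.36 SE, edgeR adjusted p = 0.163). *Nrarp* (ENSMUSG00000078202, chromosome 2), whose product binds and dampens the activated receptor, had 5 to 11 counts in controls and 8 to 11 in *Usp39*-HKO livers. With no filter its log2 fold change was 0.18 (± 0.43 SE, edgeR adjusted p = 0.843), and 79.4% of its exon bases are shared with an antisense gene. Without knowledge of the strand the reads of *Nrarp* and that gene cannot be told apart.

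Counting all 10 members, 5 had every *Usp39*-HKO liver above every control in deposited FPKM, where 14.8% of the 28412 genes with a count did. In TMM-scaled FPKM these were 3, *Jag1*, *Heyl* and *Hey1*, against 7.86% of those genes. Of the 28412 genes 14340 were high enough to be tested, and of the 10 members 7 were, so these shares are not matched for level.

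Whether members of a role differed in their response was tested on log2 ratios within a liver, which do not depend on scaling, for 10 pairs. *Hes1* over *Heyl* was the 1 pair whose groups did not overlap. This log2 ratio was 3.71, 3.70, 3.53 and 3.83 in control livers 1 to 4 and 2.81, 3.37, 3.06 and 2.96 in *Usp39*-HKO livers 1 to 4. The difference was -0.64 (± 0.13 SE), with a two-sided exact permutation p of 0.029, and of 0.29 after adjustment over the 10 pairs. With 1 pair fully separated, no pair could pass after adjustment in 8 livers, so these adjusted values say nothing about whether the pairs differ. *Hes1* over *Hey1* differed by -0.75 (± 0.32 SE, exact permutation p = 0.057), *Notch3* over *Notch2* by 0.64 (± 0.33 SE, exact permutation p = 0.11) and *Jag1* over *Jag2* by -0.74 (± 0.44 SE, exact permutation p = 0.14). The *Jag1* and *Jag2* transcripts were thus not shown to differ in response.

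Of 51 other genes of the pathway, 41 were tested. In edgeR 5 of them were higher in *Usp39*-HKO livers (10.9% of all genes tested) and 6 were lower (11.6% of all genes tested), with a median log2 fold change of -0.08. The 30 others did not pass. *Neurl1b*, 1 of the 5, passed the filter through the *Usp39*-HKO livers alone, and without it 4 of 40 were higher. Without TMM factors 10 were higher and 3 lower, against 24.6% and 4.85% of all genes. The higher genes were *Neurl1b*, *Dtx3*, *Tle3*, *Dll1* and *Lfng*, and the lower genes were *Hes6*, *Itch*, *Psen2*, *Rfng*, *Furin* and *Kat2b*. The count of higher genes was 2 without control liver 1, control liver 3 or *Usp39*-HKO liver 4, and 3 without control liver 4 or *Usp39*-HKO liver 3. Leaving out any of these 5 livers left 3 genes lower.

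Among ligands, *Dll1*, a Delta-like ligand, rose from 1.21 ± 0.178 to 2.07 ± 0.305 FPKM (SD, n = 4 livers each), a log2 fold change of 0.53 (± 0.17 SE, edgeR adjusted p = 0.0438), and 20.5% of its exon bases are shared with a gene on the opposite strand. Its call held in 2 of the 8 fits that left out a liver. *Dll4*, the ligand of endothelial cells, measured 2.1 ± 0.262 and 2.08 ± 0.911 FPKM (SD, n = 4 livers each), with a log2 fold change of -0.24 (± 0.28 SE, edgeR adjusted p = 0.58). Without *Usp39*-HKO liver 1, *Dll4* passed as lower in *Usp39*-HKO livers, with an adjusted p of 0.0302 in edgeR. *Dll3* had 0 counts in all 8 livers, *Dlk2* at most 1 count and *Dner* at most 2. *Dlk1* had 0 to 2 counts in controls and 1 to 33 in *Usp39*-HKO livers. Its mean in *Usp39*-HKO livers was 0.189 ± 0.286 FPKM (SD, n = 4 livers), carried mostly by 1 liver at 0.615, and the groups overlapped. The receptor *Notch4*, which is known from endothelium, measured 0.853 ± 0.155 and 0.879 ± 0.0958 FPKM (SD, n = 4 livers each), with a log2 fold change of -0.19 (± 0.18 SE, edgeR adjusted p = 0.471).

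For the enzymes that act on ligand and receptor, *Neurl1b*, a ubiquitin ligase for Notch ligands, had a log2 fold change of 1.63 (± 0.33 SE, edgeR adjusted p = 0.0057). It measured 0.25 ± 0.0431 and 0.914 ± 0.386 FPKM (SD, n = 4 livers each) and passed the filter through the *Usp39*-HKO livers alone. The ligases *Mib1* and *Mib2* did not pass, with log2 fold changes of -0.34 and -0.37 and adjusted p of 0.0693 and 0.102 in edgeR. Of the Fringe enzymes, which add sugars to the receptor, *Lfng* rose by 0.50 on the log2 scale (± 0.15 SE, edgeR adjusted p = 0.0332) and *Rfng* fell by 0.48 (± 0.15 SE, edgeR adjusted p = 0.0372). *Lfng* and *Rfng* each kept the call in 2 of 8 fits without a liver.

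Of 7 genes of gamma-secretase, the protease that frees the receptor's intracellular part, *Psen2* was lower and the other 6 did not pass. *Psen2* encodes a catalytic subunit and fell from 37.3 ± 2.35 to 28.4 ± 2.79 FPKM (SD, n = 4 livers each), a log2 fold change of -0.62 (± 0.12 SE, edgeR adjusted p = 0.00435). *Furin*, which cuts the receptor on its way to the surface, had a log2 fold change of -0.43 (edgeR adjusted p = 0.0422), and its call held in 1 of 8 fits without a liver.

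Of the genes of receptor turnover, the ubiquitin ligase *Dtx3* rose from 2.48 ± 0.356 to 5.14 ± 1.12 FPKM (SD, n = 4 livers each), a log2 fold change of 0.80 (± 0.17 SE, edgeR adjusted p = 0.00827). The ubiquitin ligase *Itch* fell by 0.67 on the log2 scale (± 0.14 SE, edgeR adjusted p = 0.00615). *Tle3*, a corepressor, had a log2 fold change of 0.55 (edgeR adjusted p = 0.0286), and *Kat2b*, an acetyltransferase, of -0.33 (edgeR adjusted p = 0.049). *Tle3* kept its call in 5 and *Kat2b* in 2 of 8 fits without a liver.

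*Hes6*, a relative of *Hes1* that is known to oppose it, was the one lower gene among the other 4 *Hes* and *Hey* genes, of which it alone was tested. It fell from 11.2 ± 2.65 to 6.27 ± 0.954 FPKM (SD, n = 4 livers each), with no overlap between the groups and a log2 fold change of -1.06 (± 0.18 SE, edgeR adjusted p = 0.00284). *Hes5* had 0 counts in all 8 livers, and *Hes7* and *Hey2* had at most 7. The calls of *Hes6*, *Dtx3*, *Itch* and *Psen2* held in all 8 fits without a liver.

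**Figure D3:**
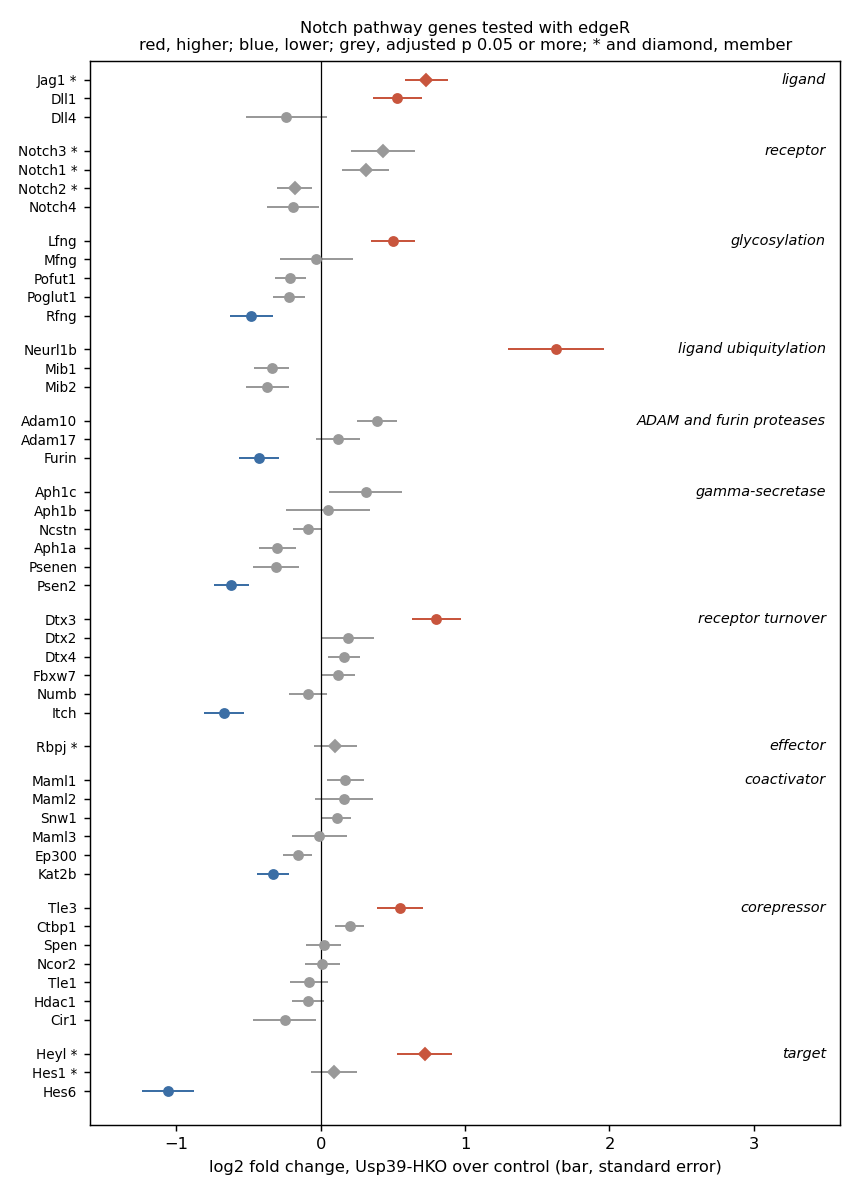
Log2 fold change, *Usp39*-HKO against control (points, bars are standard errors) for the 7 tested members (diamonds, starred names) and 40 of the 41 other tested genes of the pathway (circles), grouped by role. *Jag1* at 0.73 and *Heyl* at 0.72 are the red diamonds, and the 4 receptors, *Rbpj* and *Hes1* are grey. *Hes6* at -1.06 and *Neurl1b* at 1.63 lie at the ends, and *Neurl1b* passed the filter through the *Usp39*-HKO livers alone.

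Bulk liver also holds bile duct, endothelial, stellate and mural cells and macrophages, and markers of these cells are given beside the Notch genes. Of 12 biliary markers 8 were tested and 5 were higher, 0 lower, against 10.9% and 11.6% of all genes tested. *Cldn4*, 1 of the 5, passed the filter through the *Usp39*-HKO livers alone, and without it 4 of 7 were higher. *Krt19* and *Epcam*, their defining genes, had log2 fold changes of 1.76 (edgeR adjusted p = 0.0107) and 2.11 (edgeR adjusted p = 0.00582). The summed TMM-scaled FPKM of the biliary list was 39.1 to 41.9 in controls and 75, 140, 151 and 257 in *Usp39*-HKO livers 1 to 4. No biliary marker was at 0 counts in all livers, and *Cldn4* and *Sctr* were among those at 0 in at least 1 liver.

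Of 12 stellate and mural markers 9 were tested and 7 were higher, 0 lower, against 10.9% and 11.6% of all genes tested. *Acta2*, *Myh11* and *Tagln*, known from smooth muscle, were not among the 7. *Acta2* had a log2 fold change of 0.92 (edgeR adjusted p = 0.167). *Myh11* and *Tagln* were not tested, at mean FPKM of 0.425 and 0.4 in controls and of 0.494 and 0.336 in *Usp39*-HKO livers. *Pdgfrb* had a log2 fold change of 0.86 (edgeR adjusted p = 0.00394) and *Des* of 0.52 (edgeR adjusted p = 0.0901). Without *Usp39*-HKO liver 1, *Des* passed with an adjusted p of 0.0256 in edgeR. The summed TMM-scaled FPKM of the list was 83.4 to 99.4 in controls and 120, 198, 168 and 203 in *Usp39*-HKO livers 1 to 4. Of 10 macrophage markers 8 were higher and 0 lower, with *Clec4f* at a log2 fold change of 0.35 (edgeR adjusted p = 0.0336) and *Adgre1* at 0.36 (edgeR adjusted p = 0.105), and the sum was 463 to 633 among controls and 728 to 950 among *Usp39*-HKO livers. *Adgre1* passed without *Usp39*-HKO liver 1 (edgeR adjusted p = 0.022), and *Clec4f* kept its call in 3 of 8 fits without a liver.

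Of 12 endothelial markers 0 were higher and 2, *Stab2* and *Lyve1*, were lower. Of all genes tested 10.9% were higher and 11.6% lower, so 2 of 12 is near that share. *Pecam1* and *Cdh5* had log2 fold changes of 0.11 and 0.09 (adjusted p = 0.431 and 0.458 in edgeR), and the summed TMM-scaled FPKM was 163 to 187 among controls and 151 to 165 among *Usp39*-HKO livers. In deposited FPKM the sum was 148 to 172 and 167 to 180, and *Pecam1* and *Cdh5* were higher in every *Usp39*-HKO liver than in every control. *Pecam1* was called in 3 and *Cdh5* in 2 of 15 alternatives, none of which left out a liver. Of 10 hepatocyte markers 0 were higher and 5 were lower. Their summed TMM-scaled FPKM was 20343 to 22808 among controls and 13602 to 21893 among *Usp39*-HKO livers. The hepatocyte sum in deposited FPKM was 19128 to 20870 among controls and 16172 to 22152 among *Usp39*-HKO livers. No marker of these 2 lists or of the macrophage list was at 0 in any liver.

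*Usp39*-HKO liver 4 held the highest TMM-scaled FPKM of the 4 *Usp39*-HKO livers for 6 of the 10 members, among them *Jag1*, *Jag2*, *Heyl* and *Hey1*, and the lowest for 0. The same liver had the highest biliary, stellate and macrophage sums and the lowest hepatocyte sum. *Usp39*-HKO liver 1 had the lowest biliary and stellate sums and was lowest for *Heyl*, *Notch3* and *Hes1*. *Jag1* was lowest in *Usp39*-HKO liver 3, at 2.71 against 3.18 in *Usp39*-HKO liver 1. *Jag2* and *Hey1* were lowest in *Usp39*-HKO liver 2. Of the 10 members, *Usp39*-HKO liver 1 was lowest for 3 and highest for 1, *Nrarp*, and *Usp39*-HKO liver 3 was lowest for 4. The part of cell numbers in the levels of *Jag1* and *Heyl* was not tested.

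**Figure D4:**
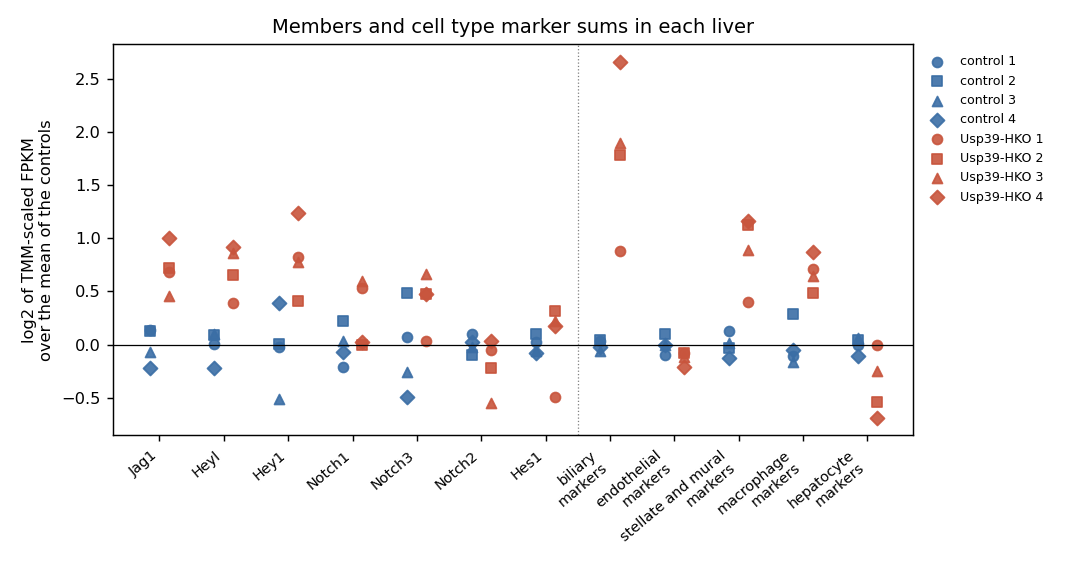
Log2 of TMM-scaled FPKM over the mean of the 4 controls for 7 members (left) and for the summed markers of 5 cell types (right), with 1 symbol per liver, controls blue and *Usp39*-HKO red. *Jag1*, *Heyl* and *Hey1* and the biliary, stellate and macrophage sums have all red points above all blue points, and the endothelial and hepatocyte sums do not.

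The genes with the pattern most like that of a member were sought among all genes tested, by the root mean square difference over the 8 livers of log2(TMM-scaled CPM + 1), each gene centred on its own mean. For *Jag1* these were *Prkcd*, which encodes a protein kinase C, with a difference of 0.0527, *Elf4* with 0.0901 and *Arntl2* with 0.0966. *Prkcd* had a log2 fold change of 0.65 and mean FPKM of 3.23 in controls and 6.02 in *Usp39*-HKO livers. For *Heyl* they were *Cdh13*, which encodes a cadherin, with 0.0594, *Sae1* with 0.0687 and *Pdrg1* with 0.0747. For *Notch1*, the receptor with the smallest p, they were *Rpl34* with 0.0687, *Utp18* with 0.076 and a gene listed as ENSMUSG00000114525 with 0.0764. The last had a log2 fold change of 1.35, against 0.31 for *Notch1*, with mean FPKM of 0.387 in controls and 1.24 in *Usp39*-HKO livers. Adding 1 to the CPM narrows differences at low values, so genes near each other on this measure can differ in fold change.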

How the data were processed

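Liver RNA of 4 *Usp39*-HKO and 4 control male mice was sequenced as paired reads, with 1 library per mouse. According to the labels and methods, the authors trimmed reads with Trim Galore 0.6.1, aligned them to mm10 with HISAT2 and deposited raw counts per gene from featureCounts, without normalization. The authors also deposited FPKM, made from counts, exon length and the total of the mouse, which the counts give back within 5e-07. Annotation release and strandedness are not given in the sources used here. The authors deposited a DESeq2 comparison too (a mean normalized signal, log2 fold changes, scores and p-values), which was not used. Repeated rows (314), which differ only in symbol, were read once. Coordinates are from GENCODE vM21, which holds 99.6% of the identifiers.

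Genes with FPKM of at least 0.5 in at least 4 livers were tested with edgeR 4.0.16 (R 4.3.3), TMM factors and genotype as the only term. The fits were tested on simulated data. Standard errors follow from the F statistic of each fit, and intervals from the moderated degrees of freedom. Exact permutation tests ran over the 70 assignments of the 8 livers (scipy 1.17.1). Ratios used counts plus 0.5. Alternatives were DESeq2 1.42.0, limma 3.58.1, other scaling, other filters and each liver left out. Livers of a genotype varied beyond counting error, with a chi-square of 7.02 to 36.4 times its degrees of freedom.

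The members and lists were chosen with earlier results of these data known. Genes were named by rule: all members, *Usp39*, called pathway genes (at most 10 each way), ligands and *Notch4*, defining markers, and the 3 nearest genes of the ligand, receptor and target with the smallest p. *Mib1*, *Mib2*, *Hes5*, *Hes7*, *Hey2*, *Stab2*, *Lyve1*, *Cldn4*, *Sctr*, *Acta2*, *Myh11* and *Tagln* were added after their values were seen. Single values of 2 listed genes are not reported here.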

Additional observations from a re-analysis of the deposited data

How the results depend on the processing

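No paired analysis was possible because the labels give each mouse its own number and do not say which mice shared a litter. *Jag1* was called higher in all 15 alternatives run for it, with log2 fold changes between 0.62 and 0.98, and *Heyl* in 11 of 14, each loss coming from leaving out a liver. The number of members called higher, 2 in the main comparison, was 4 without scaling factors and 1 with a filter at an FPKM of 1 in 4 livers, which removes *Heyl*, was 3 in both limma fits, where *Notch1* passes, and lay between 1 and 2 with a liver left out. At the study's cutoff the number of members higher, again 2, was 4 without scaling factors, 4 with no filter, where *Jag2* and *Hey1* are tested too, and 1 with the filter at an FPKM of 1; with a liver left out it lay between 2 and 3. Other pathway genes called higher, 5 in the main comparison, were 10 without scaling factors and 8 in limma on log2(FPKM + 1), and between 2 and 5 with a liver left out. Those called lower, 6 in the main comparison, were 3 without scaling factors, 2 in limma on log2(FPKM + 1) and 2 on log2(FPKM + 0.1), and between 3 and 6 with a liver left out. Scaling decides the balance of these calls, because the median gene is shifted upwards in the unscaled fits. The uncalled log2 fold change of *Notch2* turned to 0.07 without scaling factors and to 0.04 in both limma fits, its FPKM difference turned to -0.841 with TMM scaling, and the log2 fold change of *Rbpj* ran from -0.03 without control liver 2 to 0.21 without control liver 4. Depth limits *Jag2*, *Hey1* and *Nrarp*, with 2 to 29 counts per liver.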
